A study of Homo sapiens with 3 samples.

Results

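The genes described here are MYCL, MYCN, MAX, MXD1, MXD3, MXD4, MXI1, MNT, MLX and MLXIP, which are 10 of the 20163 protein-coding genes on chromosomes 1 to 22, X and Y of hg19. They were chosen by name as paralogs of MYC and partners in the MAX network, not by any measured value. Earlier results of these data were known when the choice was made. For each gene, the peaks over the gene body or within 50 kb of it were taken, which gave 43 of the 18585 H3K4me3 peaks and 61 of the 24096 H3K27ac peaks. The peaks came from chromatin immunoprecipitation and sequencing (ChIP-seq) of H2087 cells, a long-established line from a lung adenocarcinoma, which were untreated and grown in RPMI with fetal bovine serum. The labels give 3 samples, with 1 library for each mark and 1 input library, which was not analysed here. With 1 library per mark there is no replicate, so no test between genes or marks was made, every order of values is descriptive, and intervals cover counting error only. The authors' lists give a value for each peak that was read as −log10 q, the strength of evidence that the peak caller assigned within its own list. The read depth is unknown, so where no peak was called, an absent mark and too few reads cannot be told apart.

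MAX is a basic helix-loop-helix leucine zipper protein that binds the DNA sequence CACGTG, the E-box, as a dimer. MYC, MYCN and MYCL activate transcription when they pair with MAX, whereas MXD1, MXI1, MXD3, MXD4 and MNT compete for MAX and recruit SIN3 co-repressors. MLX is a MAX-like protein that pairs with some MXD proteins and with MLXIP (MondoA), which responds to glucose-derived metabolites. MYCL and MYCN are known as amplified or highly expressed genes in small-cell lung cancer, and MYCN also in neuroblastoma. H3K4me3 is typical of active or poised promoters, and H3K27ac of active promoters and enhancers.

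The line was first compared with its label. All 6 epithelial markers (EPCAM, CDH1, KRT7, KRT8, KRT18 and KRT19) had both marks at the canonical start. Of the 4 lung lineage markers, NKX2-1 had both marks, and NAPSA, SFTPB and SFTPA1 had none. The 11 markers of other cell types that could be placed had neither mark, and PECAM1 was not found among the protein-coding genes used. Over all canonical starts, 41.8% had H3K4me3, 25.5% had H3K27ac and 20.6% had both. The 1 of 4 lung lineage markers with both marks is close to that last share.

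E-box sequences near the starts of the 10 genes are shown first, because CACGTG is the sequence that the proteins of this network bind. The letters CACGTG read the same on both strands and are printed in capitals, each sequence running 5′ to 3′ on the strand of its gene in hg19, with no untranslated exon bases included. The first 4 lie in the promoter window, from 250 bases before to 50 after a start, and the other 5 lie inside peaks near a start. The outer start is the 5′-most annotated end of a gene, and the canonical start is that of the transcript tagged as canonical by Ensembl. The nearest protein-coding start to a peak was always sought among outer starts only.
MAX, chr14:65569539-65569624, minus strand, at −171 from the outer start: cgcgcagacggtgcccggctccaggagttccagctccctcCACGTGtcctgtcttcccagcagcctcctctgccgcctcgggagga
MXD4, chr4:2264029-2264114, minus strand, at −238 from the start: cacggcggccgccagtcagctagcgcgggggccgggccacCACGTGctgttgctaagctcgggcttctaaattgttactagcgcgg
MNT, chr17:2304502-2304587, minus strand, at −193 from the canonical start: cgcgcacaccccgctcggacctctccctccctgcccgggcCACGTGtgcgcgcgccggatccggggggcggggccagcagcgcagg
MLX, chr17:40719028-40719089, plus strand, at −50 from the canonical start: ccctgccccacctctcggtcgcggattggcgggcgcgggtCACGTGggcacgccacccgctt
MAX, chr14:65569940-65570025, minus strand, in the upstream H3K4me3 peak: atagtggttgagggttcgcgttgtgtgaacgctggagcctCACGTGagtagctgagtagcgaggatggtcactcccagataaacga
MXD1, chr2:70141377-70141462, plus strand, in an H3K4me3 peak before the canonical start: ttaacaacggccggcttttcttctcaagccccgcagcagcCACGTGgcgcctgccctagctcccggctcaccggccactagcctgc
MNT, chr17:2303894-2303979, minus strand, in the H3K4me3 peak over exon 1: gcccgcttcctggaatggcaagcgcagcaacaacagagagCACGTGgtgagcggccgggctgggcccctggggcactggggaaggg
MLX, chr17:40717736-40717821, plus strand, in the upstream H3K27ac peak: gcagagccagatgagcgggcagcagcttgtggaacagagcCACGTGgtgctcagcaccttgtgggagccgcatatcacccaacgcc
MLXIP, chr12:122516249-122516334, plus strand, in the H3K4me3 peak before the start: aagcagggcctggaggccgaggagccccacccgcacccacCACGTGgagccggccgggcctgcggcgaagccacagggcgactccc

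CACGTG occurred in the promoter window of 4 of the 10 genes (MAX, MXD4, MNT and MLX), against 8.33% of the 20163 protein-coding promoters of the same length. At canonical starts the same 4 genes had it, against 8.76% of promoters. In MAX the copy in the canonical window was a different one, at −51 from the canonical start, which is inside an annotated untranslated region and is not printed. None of these promoter copies lay under a peak. The nearest H3K4me3 peak was 177 and 216 bases away for the copies in MAX, 182 for MLX, 391 for MNT and 465 for MXD4. By contrast, the MNT copy inside the peak is formed by the last 6 bases of exon 1, next to the splice donor. A pair of CACGTG with 5 bases between them, the arrangement of carbohydrate response elements in its strict form, occurred in 0 of the 10 canonical windows and in 0.0101% of promoters. The GC box GGGCGG, counted on both strands, was present in 10 of 10 canonical windows against 61.4% of promoters, CACGCG in 0 against 15.3%, and TATAAA in 0 against 9.62%. The median GC content was 71% in the 10 windows and 63.7% over all canonical promoters. Over whole peaks of the windows, CACGTG was found in 5 of the 43 H3K4me3 peaks (11.6%, against 5.84% of the list) and 3 of the 61 H3K27ac peaks (4.92%, against 5.98%). These include peaks nearest to neighbouring genes, namely a peak of each mark at TSR1 in the MNT window and an H3K27ac peak near SMNDC1 in the MXI1 window.

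A start was counted as marked when the edge of a peak lay within 1 kb. At the outer start, H3K4me3 was found in 6 of the 10 genes (MAX, MXD3, MXD4, MNT, MLX and MLXIP), against 38.2% of protein-coding genes. H3K27ac was found at 4 outer starts (MAX, MXD3, MXD4 and MLX), against 23.6%, and each of these had both marks, against 18.6%. MNT and MLXIP had H3K4me3 without H3K27ac there, a state seen at 19.6% of all outer starts. At canonical starts, H3K4me3 was found in 8 genes, with MYCL and MXD1 added, against 41.8%. H3K27ac was found in 5, with MXD1 added, against 25.5%, and the same 5 had both marks, against 20.6%. When the start of any annotated transcript was allowed, MXI1 joined the genes with H3K4me3, giving 9, and MNT joined those with H3K27ac, giving 6, against 45.4% and 30.7%. Both marks were then present in 6 genes, against 25.3%. MYCN was the only one of the 10 that had neither mark at any annotated start.

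The position of the peaks was then taken from the canonical starts. Of the 13 H3K4me3 peaks within 1 kb of a canonical start, 8 were centred downstream and 5 upstream, with a median centre 440 bp downstream, and 0 covered the start itself. Of the 8 H3K27ac peaks, 5 were centred downstream and 3 upstream, with a median centre 208 bp downstream, and again 0 covered the start. The side and distance of peak centres were not computed over all genes, so they cannot be called particular to these genes. Over all protein-coding genes, 5.36% of such H3K4me3 peaks and 3.5% of such H3K27ac peaks covered the canonical start, so that a count of 0 among so few peaks is near the background. Other annotated starts were covered by a peak in MAX, MXD3, MXI1, MNT and MLX. For such starts no share over all genes was computed, and the shares above do not apply to them. Widths ranged from 183 to 813 bp for H3K4me3 and from 221 to 585 bp for H3K27ac.

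**Figure D1:**
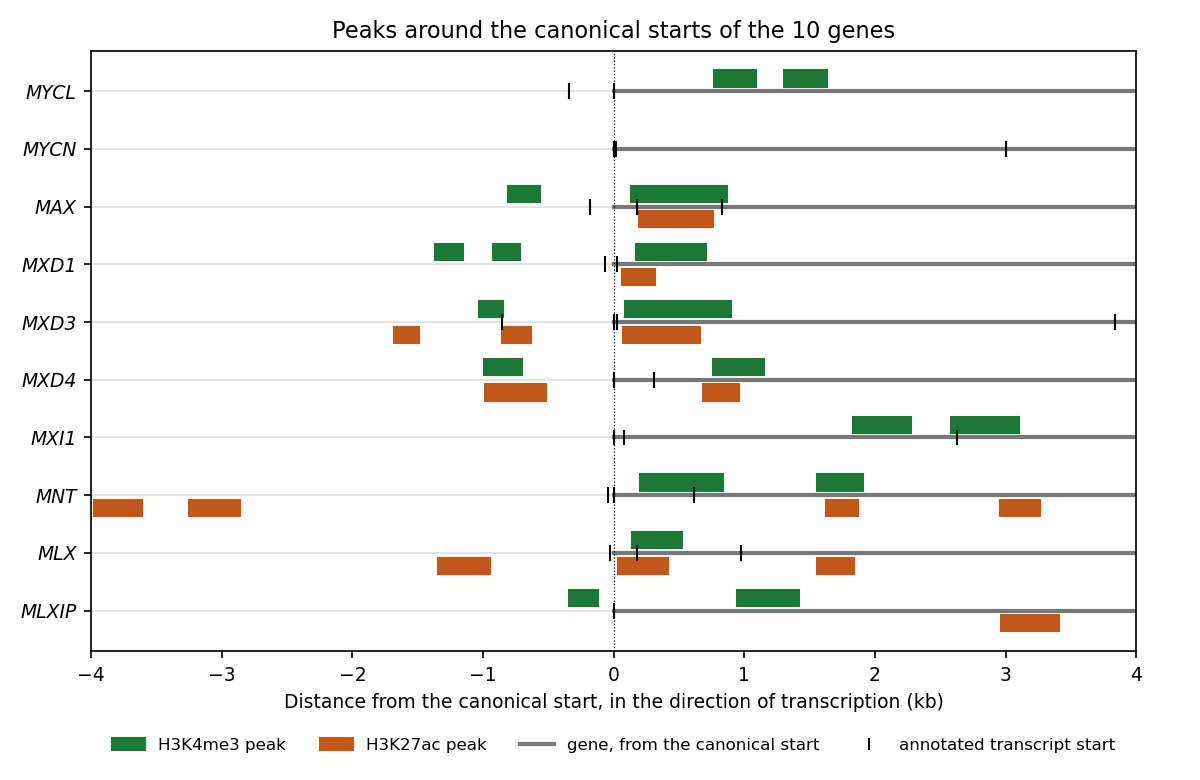
Peaks of H3K4me3 (above each line) and H3K27ac (below) within 4 kb of the canonical starts of the 10 genes, with the distance in kb in the direction of transcription and black ticks at the outer limits of annotated transcript start clusters. MYCN has no peak, MYCL and MXI1 have H3K4me3 only, and no peak crosses the dotted line at the canonical start.

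MYCN and MYCL, the paralogs of MYC, had no H3K27ac peak in their windows, unlike MAX. Within 1 kb of the canonical start, MXI1, MNT and MLXIP had none either. MYCN (chr2:16080672-16087129, plus strand) had no peak of either mark over the gene or within 50 kb, as did 23.6% of protein-coding genes. The nearest H3K27ac peak was 266249 bp and the nearest H3K4me3 peak 348260 bp from its start. Within 1 Mb of the MYCN start there were 7 H3K4me3 and 15 H3K27ac peaks, the lowest numbers among the 10 genes, for which the other ranges were 20 to 65 and 36 to 96. The 250 bases before its start are printed because no annotated start of MYCN was marked, unlike those of the other genes. Capitals mark GGGCGG on either strand. The promoter window of 300 bases, which also takes in 50 bases after the start, had a GC content of 58.7%.
MYCN, chr2:16080422-16080671, plus strand: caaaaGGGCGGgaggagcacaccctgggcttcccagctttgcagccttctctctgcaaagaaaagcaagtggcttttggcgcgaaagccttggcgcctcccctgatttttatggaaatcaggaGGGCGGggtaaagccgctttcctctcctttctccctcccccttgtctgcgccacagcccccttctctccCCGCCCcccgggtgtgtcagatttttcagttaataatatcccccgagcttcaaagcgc

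MYCL (chr1:40361100-40367928, minus strand) had 2 H3K4me3 peaks and no H3K27ac peak in its window. The stronger peak, at 40366499 to 40366818, had a −log10 q of 5.47, higher than 86.9% of the H3K4me3 list, and covered coding sequence at the end of exon 1 and the beginning of intron 1. Its centre was 930 bp downstream of the canonical start and 1270 bp from the outer start, so that it counted at the first and not at the second. The other, at 40365955 to 40366287 in intron 1, had a −log10 q of 2.21, higher than 25.2% of the list. The nearest H3K27ac peak to the canonical start was 58165 bp away.

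MAX (chr14:65472892-65569413, minus strand), the shared partner, had both marks over the end of exon 1 and intron 1. The H3K27ac peak at 65568478 to 65569043 had a −log10 q of 9.13, higher than 99.4% of the H3K27ac list, and its whole width of 566 bp lay inside an H3K4me3 peak. That H3K4me3 peak, at 65568370 to 65569104, had a −log10 q of 3.76, higher than 65.3% of its list, and covered annotated transcript starts other than the canonical one. Upstream of the gene lay the H3K4me3 peak with the E-box printed above, at 65569800 to 65570047 (−log10 q 2.68). The gene had 1 further peak, an H3K27ac peak at 65535788 to 65536057 with a −log10 q of 4.42, beyond the 3′ end of the canonical transcript and 33312 bp from its start. The remaining H3K4me3 and H3K27ac peaks of the window were nearest to the start of RAB15.

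The 4 genes of the MXD family, which encode repressors, showed 3 different patterns. MXD3 and MXD4 had both marks at the outer and the canonical start, MXD1 had both marks only at the canonical start, and MXI1 had H3K4me3 only, at alternative starts.

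MXD3 (chr5:176728462-176739758, minus strand) had the strongest H3K4me3 peak at a start of the family. It lay at 176738000 to 176738812, was 813 bp wide with 2 summits, had a −log10 q of 5.98 (higher than 89.9% of the list) and covered coding sequence of exons 1 and 2. An H3K27ac peak at 176738242 to 176738826 with a −log10 q of 4.29 shared 571 bp with it. A weaker pair lay at the outer start, 859 bp upstream of the canonical one, where an H3K4me3 peak (176739750 to 176739932, −log10 q 3.58) covered the outer start and an H3K27ac peak (176739534 to 176739754, 3.36) shared 5 bp with it. One more H3K27ac peak lay further upstream at 176740391 to 176740584 (−log10 q 4.76). The annotated gene body also held 4 H3K4me3 peaks and 1 H3K27ac peak nearest to the starts of RAB24 and PRELID1, since retained-intron transcripts of MXD3 extend over these genes. They are included where peaks over gene bodies or in windows are counted, and are not among the peaks nearest to the MXD3 start.

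MXD4 (chr4:2249159-2263836, minus strand) had weaker peaks on each side of its start. In intron 2, H3K4me3 at 2262685 to 2263074 (−log10 q 2.57) and H3K27ac at 2262877 to 2263156 (2.45) shared 198 bp. Upstream, H3K4me3 at 2264539 to 2264826 (1.46) and H3K27ac at 2264352 to 2264821 (3.09) shared 283 bp. The printed E-box of MXD4 lay between these pairs. The H3K4me3 values were low in their list, above 38.4% and 5.23% of the peaks.

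MXD1 (chr2:70124820-70170077, plus strand) had no peak within 1 kb of its outer start, which belongs to 1 annotated transcript. The canonical start, 17421 bp downstream, had 2 H3K4me3 peaks within 1 kb, at 70141320 to 70141521 (−log10 q 1.34) and at 70142414 to 70142947 (3.54), the latter over exon 1 with its untranslated and coding parts. The H3K4me3 peak with the highest value in the gene, 5.41, was at 70140873 to 70141084, 1157 bp or more upstream of the canonical start. H3K27ac at this start was among the weakest of its list, with a −log10 q of 1.34 at 70142307 to 70142557, higher than 0.598% of the peaks. The other H3K27ac peak over the gene was in an intron, at 70161349 to 70161548 (1.63). Beyond the 3′ end, 2418 bp from the gene, an H3K27ac peak of 955 bp (70172495 to 70173449, −log10 q 4.99) covered the whole of a 575-bp H3K4me3 peak (2.36). The nearest protein-coding start to that site was ASPRV1, at 15314 bp.

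MXI1 (chr10:111967363-112047123, plus strand) had no peak within 1 kb of its outer start, which is also the canonical start. It had 3 H3K4me3 peaks further down. The peak at 111969195 to 111969637 (−log10 q 2.91) lay 352 bp before an alternative start, and the peak at 111969945 to 111970467 (1.64) covered it. The third, at 111987144 to 111987525 (4.2, higher than 73.3% of the list), lay among the starts of 32 annotated transcripts between 111985751 and 111987437. MXI1 had no H3K27ac peak over its body. All 5 H3K27ac peaks of the window, and 3 H3K4me3 peaks, were nearest to the start of SMNDC1, a splicing factor gene downstream. They included an H3K27ac peak of 1185 bp at 112084836 to 112086020 (−log10 q 5.98), 20140 bp from that start.

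**Figure D2:**
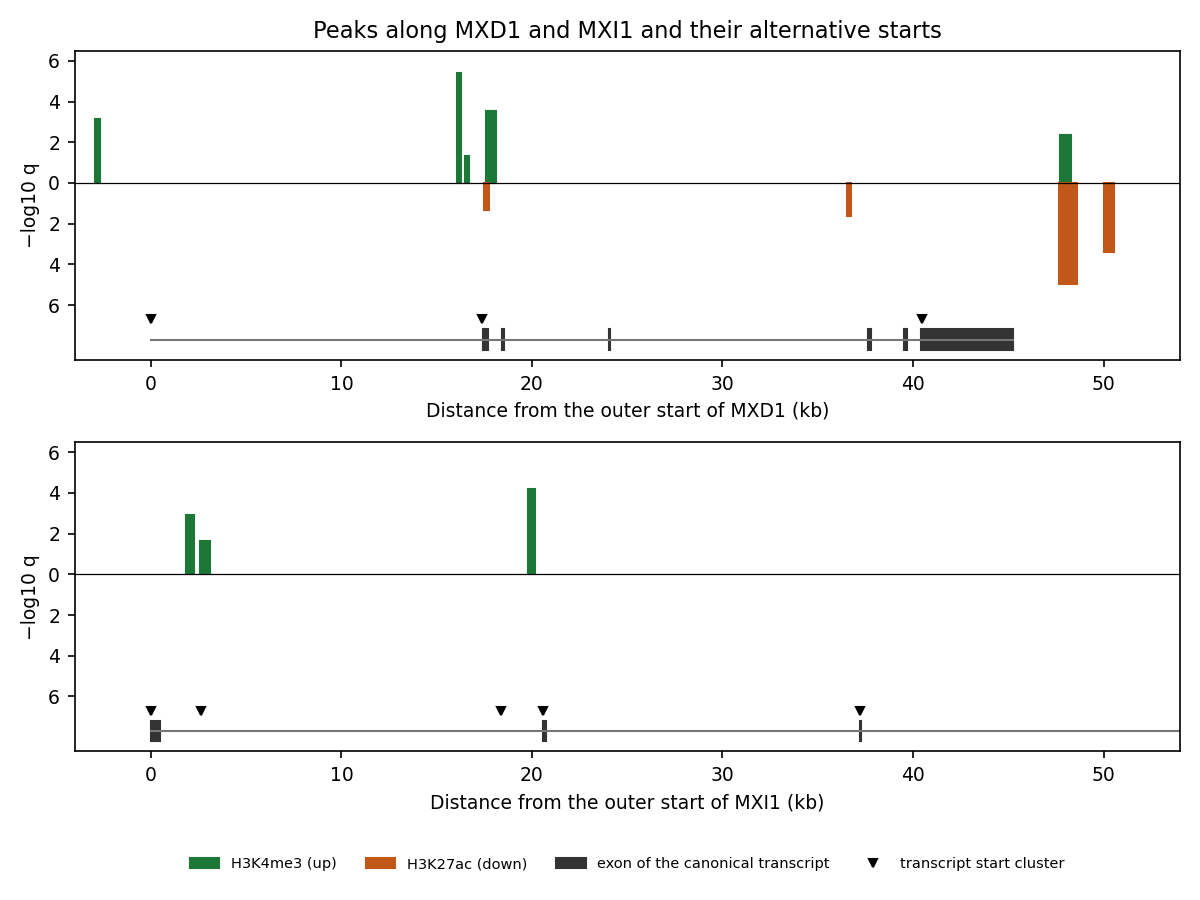
Peaks along MXD1 (upper panel) and MXI1 (lower panel) by distance in kb from the outer start, with H3K4me3 drawn upwards and H3K27ac downwards to a height of −log10 q, exons of the canonical transcript as dark boxes and transcript start clusters as triangles. In MXD1 the 3 H3K4me3 peaks over the gene lie near the second start, 17421 bp in, where H3K27ac is weak (1.34). H3K27ac also lies in an intron of MXD1 (1.63), and peaks of both marks lie outside that gene, with H3K27ac up to 4.99. In MXI1 H3K4me3 lies at the next clusters after the canonical start, with no H3K27ac.

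MNT (chr17:2287367-2304398, minus strand), a MAX partner that is expressed in most cell types, had the most H3K27ac peaks of the 10 genes. Its window held 18, more than in 98.2% of protein-coding genes, and 7 H3K4me3 peaks, more than in 88.8%. The start of MNT was the nearest protein-coding start for 12 of the H3K27ac and 5 of the H3K4me3 peaks, and most of the others were nearest to SGSM2. These 12 spanned 22.1 kb, from 2288920 to 2311010, and covered 4049 bp of it. Over the gene body there were 9 H3K27ac and 5 H3K4me3 peaks, more than in 98.7% and 98.4% of protein-coding genes.

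At the start itself MNT had H3K4me3 without H3K27ac. The H3K4me3 peak at 2303521 to 2304151, over exon 1 and intron 1, had the highest H3K4me3 value of the peaks at the canonical starts, with a −log10 q of 7.0 (higher than 94.2% of the list), and the nearest H3K27ac peak was 1629 bp from the canonical start. In introns of the canonical transcript, 4 sites had both marks. In the order given below, their H3K4me3 peaks lay 73, 0, 944 and 937 bp from other annotated starts of MNT. Those starts belong to transcripts not annotated as protein-coding. At 2299451 to 2300074 the H3K4me3 value was 6.39 and the H3K27ac value 4.32, with 547 bp shared. At 2296766 to 2297124 the values were 4.91 and 3.92, at 2302442 to 2302796 they were 4.21 and 3.22, and at 2298883 to 2299210 they were 2.73 and 4.76. The strongest H3K27ac peak of the gene, with a −log10 q of 4.99 at 2298312 to 2298651, lay inside coding exon 2 without H3K4me3. Upstream, 3 H3K27ac peaks without H3K4me3 had values of 4.05, 3.05 and 1.66, centred at −3058, −3793 and −6516 bp from the canonical start.

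**Figure D3:**
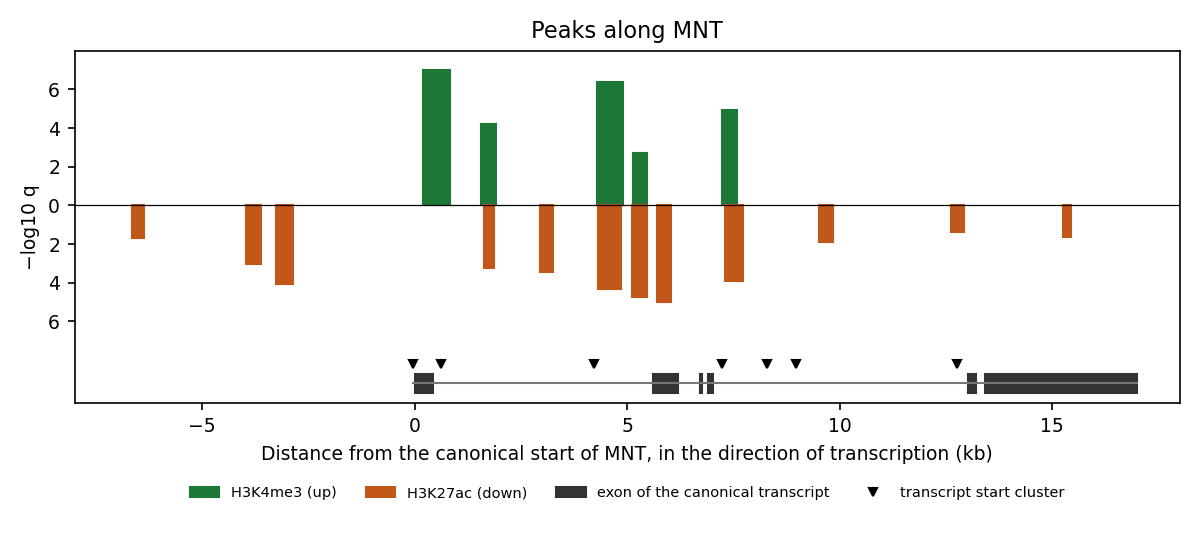
Peaks along MNT by distance in kb from its canonical start, with H3K4me3 drawn upwards and H3K27ac downwards to a height of −log10 q, exons of the canonical transcript as dark boxes and transcript start clusters as triangles. H3K4me3 is highest at the start (7.0), where H3K27ac is lacking. At 4 intronic sites both marks are present, with the H3K4me3 peak within 1 kb of another annotated start.

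MLX and MLXIP encode the partners of the glucose-responsive arm. MLX (chr17:40719090-40725257, plus strand) had the strongest H3K27ac peak of the 10 genes, at 40719148 to 40719537, with a −log10 q of 10.39, higher than 99.7% of the list. The H3K4me3 peak at 40719255 to 40719640 shared 283 bp with it and had a −log10 q of 2.33, higher than only 33.7% of its list. The shared stretch is printed because it carries the highest H3K27ac value of the set. Capitals mark bases that are coding in at least 1 annotated transcript, and in the canonical transcript the stretch lies in intron 1.
MLX, chr17:40719255-40719537, plus strand: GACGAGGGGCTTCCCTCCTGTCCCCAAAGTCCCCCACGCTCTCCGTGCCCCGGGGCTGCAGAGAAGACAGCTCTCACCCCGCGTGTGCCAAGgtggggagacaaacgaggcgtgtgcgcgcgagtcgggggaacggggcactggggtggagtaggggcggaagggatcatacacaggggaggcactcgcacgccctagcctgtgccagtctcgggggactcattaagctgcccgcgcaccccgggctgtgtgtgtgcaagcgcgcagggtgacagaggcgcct

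MLX had 2 other H3K27ac peaks of its own, an upstream peak at 40717772 to 40718169 inside COASY (−log10 q 2.45) and a peak at exon 4 (1.79), both without H3K4me3. Its window is gene-dense. Of its 15 H3K27ac peaks, 8 were nearest to NAGLU and 3 to HSD17B1, and 3 of its 7 H3K4me3 peaks were nearest to HSD17B1. MLXIP (chr12:122516628-122631894, plus strand), in contrast, had H3K4me3 alone at its start. A peak at 122516288 to 122516506 upstream of the gene had a −log10 q of 3.87 (higher than 69.7% of the list), and one at 122517574 to 122518048 in intron 1 had 2.23. The nearest H3K27ac peak lay 2964 bp downstream, at 122519592 to 122520040 in intron 1, with a value of 2.22. Another H3K27ac peak, 2.82, lay in the untranslated part of exon 17, near the 3′ end of MLXIP.

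The strength of the start peaks was compared with that of all marked canonical starts, using the strongest peak at each. For the 8 genes with H3K4me3, the −log10 q was 2.33 in MLX, 2.57 in MXD4, 3.54 in MXD1, 3.76 in MAX, 3.87 in MLXIP, 5.47 in MYCL, 5.98 in MXD3 and 7.0 in MNT. Their median was 3.81, against 3.76 over 8316 marked starts. For the 5 genes with H3K27ac, it was 1.34 in MXD1, 3.09 in MXD4, 4.29 in MXD3, 9.13 in MAX and 10.39 in MLX. Their median was 4.29, against 3.05 over 5077 marked starts. MAX and MLX stood apart from the other 3 and were above the 90% point of all marked starts, 5.74. The order of the genes differed between the marks, with MLX first for H3K27ac and last for H3K4me3. MNT, first for H3K4me3, had no H3K27ac peak at its start. A −log10 q also grows with local copy number, and its part in these values was not tested. The median H3K27ac value of the peaks within 1 Mb was 3.16 for MAX, the highest of the 10 genes, and 2.82 for MLX.

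**Figure D4:**
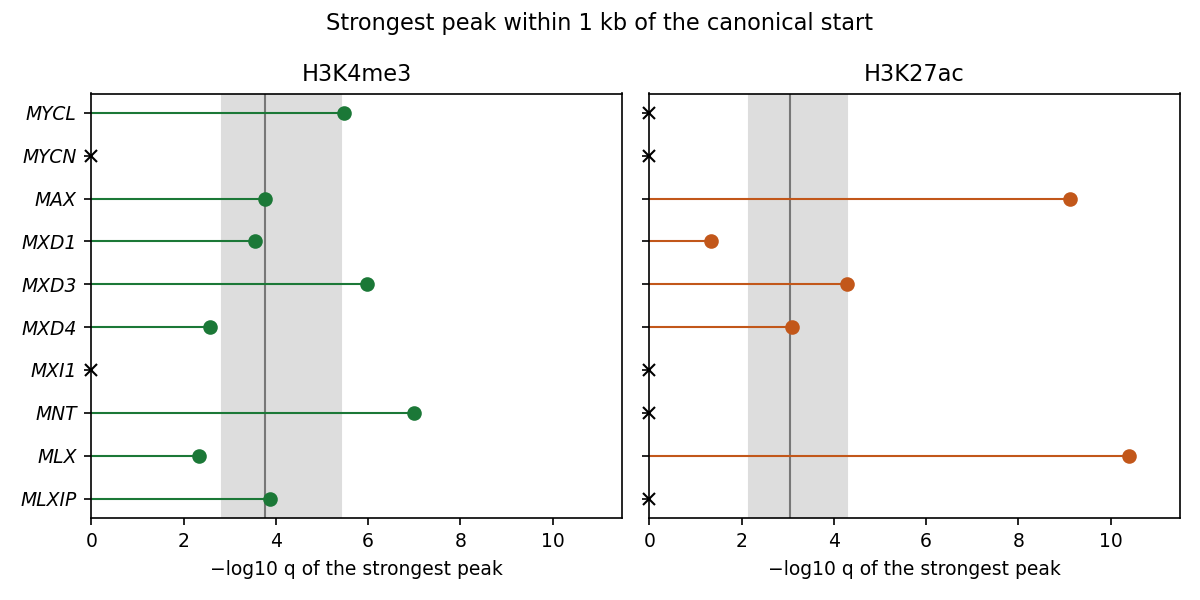
−log10 q of the strongest peak within 1 kb of the canonical start of each gene, for H3K4me3 (left) and H3K27ac (right), with a cross at 0 for no peak. The grey band and line are the quartiles and the median of all marked canonical starts, and for H3K27ac MAX (9.13) and MLX (10.39) lie far above the band, with MXD3 (4.29) at its upper edge.

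The overlap of the marks was counted over all windows, neighbouring genes included, and was not tested against the lists. The intervals treat peaks as independent, although peaks of the same window lie close together. The windows of MXD3 and MNT supplied the most H3K4me3 peaks that overlapped H3K27ac. Of the 43 H3K4me3 peaks, 23 overlapped an H3K27ac peak by at least 1 bp (53.5%, exact 95% interval 37.7 to 68.8), against 31.1% of the list. Of the 61 H3K27ac peaks, 23 overlapped H3K4me3 (37.7%, 25.6 to 51.0), against 24% of the list. Over the gene bodies alone, 11 of 23 H3K4me3 and 11 of 21 H3K27ac peaks overlapped the other mark, against 33.2% and 29.4% of the peaks over all protein-coding genes. At the canonical starts, 7 of 13 and 7 of 8 did, against 35.9% and 62.5% of the peaks at all canonical starts. The median width was 328 bp for H3K4me3 and 297 bp for H3K27ac in the windows, against 305 and 284 bp in the lists. The median −log10 q was 3.54 and 2.82, against 2.97 and 2.65. In the windows, 10 H3K4me3 and 7 H3K27ac peaks had values of 5 or more, against 16.7% and 8.84% of the lists.

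The number of peaks in a window ranged from 0 in MYCN to 9 in MXD3 for H3K4me3, and from 0 in MYCN and MYCL to 18 in MNT for H3K27ac. The medians over all protein-coding genes were 2 and 1. By outer starts alone, 22 of the 43 H3K4me3 peaks and 25 of the 61 H3K27ac peaks were nearest to the 10 genes. The remaining peaks were assigned to neighbouring genes, although some lay inside the 10 genes. For example, an H3K27ac peak in an MXD1 intron was assigned to ASPRV1, at 27215 bp, but was 19108 bp from the MXD1 canonical start. The H3K27ac peak in exon 17 of MLXIP was assigned to LRRC43, at 21843 bp, but was 9828 bp from an annotated MLXIP start.

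**Figure D5:**
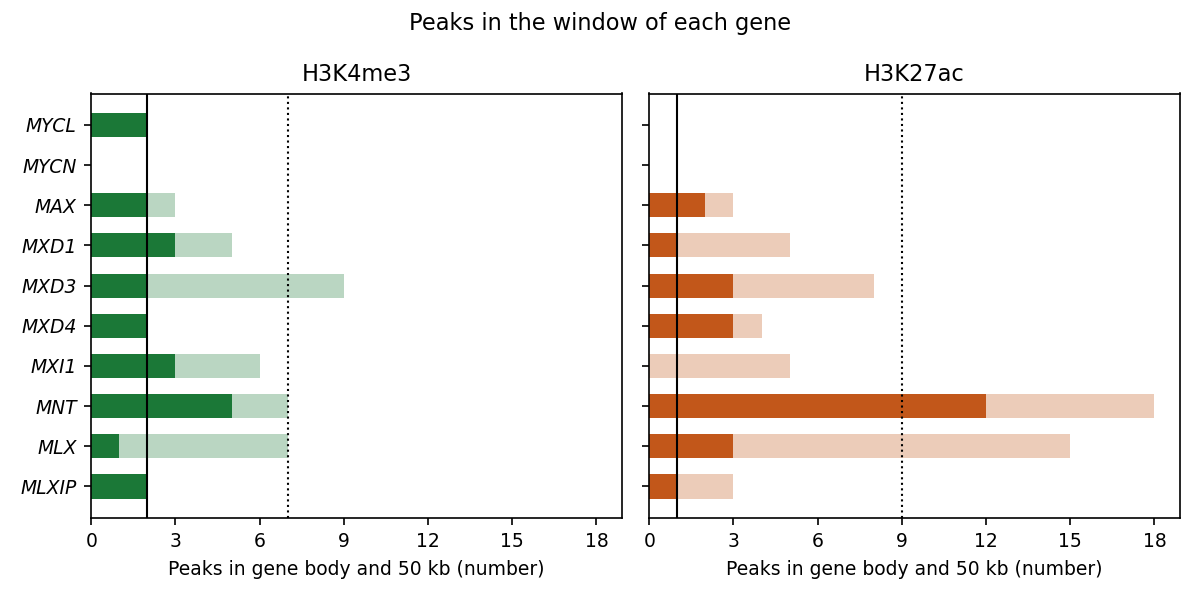
Number of H3K4me3 (left) and H3K27ac (right) peaks over each gene and within 50 kb. Dark bars are peaks nearest to the outer start of that gene, and pale bars are peaks nearest to another protein-coding outer start. The solid and dotted lines are the median and the 90% point of whole-window counts over all protein-coding genes. For H3K27ac the whole bars of MNT (18) and MLX (15) pass the dotted line at 9. The dark part of the MNT bar is 12.

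Other genes of the network and its partners were described at canonical starts by the same rule, beside 41.8% of starts with H3K4me3 and 25.5% with H3K27ac. MYC, MGA, a MAX partner, and MLXIPL (ChREBP), the paralog of MLXIP, all had H3K4me3, with −log10 q of 13.10, 2.78 and 5.50. H3K27ac was found at MYC (6.37) and MLXIPL (3.61) and not at MGA. MYC was therefore above each of the 8 marked members for H3K4me3, and below MAX and MLX for H3K27ac. Here too, the part of local copy number was not tested.

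Among 6 co-repressor genes, 5 had H3K4me3 and 3 had H3K27ac. SIN3B was the exception for H3K4me3, with H3K27ac alone (2.16). Among 9 genes for co-activators and other MYC partners, 8 had H3K4me3 and 6 had H3K27ac. ZBTB17, which encodes the MYC partner MIZ1, had H3K27ac alone (2.67), and KAT5, RUVBL2 and EP400 had no H3K27ac. Of 6 genes that control the turnover of MYC proteins, 5 had H3K4me3 and 2 had H3K27ac. HUWE1, on chromosome X, had no peak in its window.

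Of 12 known targets of MYC or MondoA, 11 had H3K4me3 and 9 had H3K27ac. TERT, the telomerase reverse transcriptase gene, had neither mark, and NME1 and ARRDC4 had H3K4me3 without H3K27ac. The MondoA targets TXNIP and ARRDC4 had H3K4me3 values of 5.61 and 1.72, and TXNIP had H3K27ac at 3.05. CDK4 had the highest values of the list, 25.32 for H3K4me3 and 21.40 for H3K27ac. The part of local copy number in these values was not tested.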

How the data were processed

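ChIP-seq peak lists for H3K4me3 and H3K27ac in H2087 cells, 1 library each, were analysed. According to the study's methods and the submitters' processing notes, reads were aligned to hg19 with Bowtie 1.1.1 and peaks were called with MACS2 2.1.0, and the threshold, and whether the input was the control in peak calling, are not given in the sources used here. The deposited last column was read as the −log10 q of each summit, from its values alone (smallest 1.303 and 1.306, against 1.301 for a q of 0.05). Entries with the same interval were joined and the highest value kept. Positions were read as BED and are printed 1-based, and genes came from GENCODE 44 mapped to GRCh37, the same build, in which no peak passed a chromosome end.

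The genes, lists and windows were chosen with earlier results of these data known. All members were described, and from each further list the genes outside its more common outcome were named, and TXNIP, ARRDC4 and CDK4 also, after their values were seen. Some genes of these lists are not reported here by name. MLXIP has no canonical tag, so its outer start was used. Transcript starts within 500 bp were joined into clusters. Intervals are exact Clopper-Pearson. Python 3.11.15, pysam 0.24.0 and scipy 1.17.1 were used, and the overlap code was checked on simulated peaks. Sequences were read from the GRCh37 assembly. Alternatives changed the start, distance, window, threshold, peak definition and overlap.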

Additional observations from a re-analysis of the deposited data

How the results depend on the processing

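No paired analysis was possible because a single library stands for each mark, which also leaves none to omit. Of 50 alternative values, 32 stayed within tolerance (a factor of 1.5 for counts and medians, the exact 95% interval for shares) and 18 did not. Those at canonical starts were added after seeing the data. With −log10 q of at least 5, H3K4me3 marked 2 outer starts, H3K27ac 2, and both marks 0. With peaks at or above the median −log10 q of their list, both marks were at 2 starts, the windows held 26 H3K4me3 and 31 H3K27ac peaks, and 34.6% of the former overlapped H3K27ac. Requiring 50% of the peak to be covered gave 37.2%. No share of the whole list was computed under these overlap settings, so these values cannot be set against the 31.1% found with all peaks. Gene bodies alone held 23 and 21 peaks, 10 kb windows 30 H3K27ac peaks, and 22 and 25 peaks were nearest to the outer start of a member. The median H3K27ac value of 6.95 at the 4 marked outer starts fell to 4.4 within 3 kb, 3.69 for the widest peak and 4.29 at canonical starts. For protein-coding transcripts, 11 start clusters had H3K4me3 and 6 H3K27ac, against 18 and 13 of 36 for all transcripts. No share over all protein-coding genes was computed for start clusters or for starts at the higher thresholds. These counts can therefore not be called high or low. Higher thresholds, smaller windows and fewer transcripts remove peaks or starts by construction, and 3 kb and canonical starts added marked genes. Unknown depth limits every statement on a missing mark, and 10 H3K4me3 and 7 H3K27ac peaks reached a −log10 q of 5.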
